A study of Mus musculus with 21 samples.

Results

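The comparison of late disease covered synovial fibroblasts cultured from Tg197 mice and from wild-type (WT) mice at 11 weeks of age, with 3 libraries of each. It used the 7106 regions on chromosomes 1 to 19 among the 7309 regions that the authors listed as different at this age, of 49307 listed in the whole series. The other 203 rows of the table lie off these chromosomes and were not described. Tg197 mice carry a human TNF transgene and develop polyarthritis, and WT mice lack it; the background of both groups was CBA x C57BL/6J, and cells of both were at passages 4 to 5 and received no treatment that the labels record. The series of 21 samples in 7 groups of 3 also holds Tg197 and WT cells at 3 and 8 weeks, and WT cells of 8 weeks given TNF. The labels give no sex, number of mice or culture for a library, so p-values cover no more than the spread among these 6 libraries, which may be technical.

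Synovial fibroblasts line the joint, and in inflammatory arthritis they secrete cytokines and matrix proteases and invade cartilage. DNA methylation at CG dinucleotides is copied at cell division by Dnmt1; at promoters rich in CG it usually accompanies silence, while bodies of transcribed genes are often methylated. In MethylCap-seq a methyl-CpG-binding domain protein pulls down methylated fragments, which are then sequenced. A value is therefore an amount of captured DNA, which depends on methylation and on the number of CG in the fragment, and is not a methylation level. Gene expression was not measured in these files, so the cell type could not be checked by markers. Gained means more capture in Tg197 cells and lost means less capture in Tg197 cells.

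The sequences of 6 promoters follow because a listed region covers at least 150 of their 300 bases and CG, printed in capitals, is the dinucleotide whose methylation is captured. They are from RefSeq (GRCm38.p6), run 5′ to 3′ on the strand of the gene from 250 bases before the start, and were chosen after their values were seen, among genes whose start and far end moved by the same distance between the builds within 20 bases. The first 3 lost capture and the last 3 gained it. They lie at chr11:88999153-88999452 (plus strand, Trim25), chr1:58210147-58210446 (plus, Aox4), chr2:74674763-74675062 (plus, Hoxd12), chr10:23970456-23970755 (plus, Taar5), chr1:75133841-75134140 (minus, Slc23a3) and chr7:121074481-121074780 (minus, Igsf6).
Trim25: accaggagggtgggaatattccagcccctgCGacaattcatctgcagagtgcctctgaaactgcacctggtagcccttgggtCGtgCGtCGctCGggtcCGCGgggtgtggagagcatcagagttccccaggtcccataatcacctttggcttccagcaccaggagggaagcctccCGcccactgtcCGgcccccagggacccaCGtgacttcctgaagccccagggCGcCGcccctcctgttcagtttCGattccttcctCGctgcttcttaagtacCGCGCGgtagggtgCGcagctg
Aox4: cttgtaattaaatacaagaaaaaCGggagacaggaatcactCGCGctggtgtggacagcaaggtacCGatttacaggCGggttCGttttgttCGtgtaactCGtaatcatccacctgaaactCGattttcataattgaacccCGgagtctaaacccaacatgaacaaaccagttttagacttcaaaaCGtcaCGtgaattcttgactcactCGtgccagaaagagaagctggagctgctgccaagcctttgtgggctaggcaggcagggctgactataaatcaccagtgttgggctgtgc
Hoxd12: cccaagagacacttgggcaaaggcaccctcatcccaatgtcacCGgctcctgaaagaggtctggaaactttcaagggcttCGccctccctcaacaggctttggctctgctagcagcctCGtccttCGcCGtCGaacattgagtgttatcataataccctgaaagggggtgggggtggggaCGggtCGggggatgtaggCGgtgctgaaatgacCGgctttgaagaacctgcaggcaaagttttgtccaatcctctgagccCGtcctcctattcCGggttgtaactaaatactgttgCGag
Taar5: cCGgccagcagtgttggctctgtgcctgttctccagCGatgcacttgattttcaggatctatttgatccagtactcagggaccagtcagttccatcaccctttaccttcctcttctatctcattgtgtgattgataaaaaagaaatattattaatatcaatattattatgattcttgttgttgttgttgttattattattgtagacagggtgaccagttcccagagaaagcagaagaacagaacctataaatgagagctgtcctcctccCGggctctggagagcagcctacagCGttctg
Slc23a3: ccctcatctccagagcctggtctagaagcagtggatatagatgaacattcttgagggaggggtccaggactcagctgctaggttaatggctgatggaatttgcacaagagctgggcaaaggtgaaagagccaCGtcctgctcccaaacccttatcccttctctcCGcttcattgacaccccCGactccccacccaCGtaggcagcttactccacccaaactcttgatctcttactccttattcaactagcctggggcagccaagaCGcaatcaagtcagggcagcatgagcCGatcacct
Igsf6: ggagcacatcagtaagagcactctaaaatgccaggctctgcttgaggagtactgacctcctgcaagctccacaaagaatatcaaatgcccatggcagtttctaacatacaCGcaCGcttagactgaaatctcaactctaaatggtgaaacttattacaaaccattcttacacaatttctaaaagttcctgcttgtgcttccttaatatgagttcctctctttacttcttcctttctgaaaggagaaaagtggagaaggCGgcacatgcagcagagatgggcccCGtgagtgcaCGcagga

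Trim25, a ubiquitin ligase of antiviral signalling, holds 18 CG in this window, and 29.7% of all 32841 RefSeq promoters hold as many or more. Its listed region (mm9, chr11:88860601-88861200) had 32.7, 32.1 and 20.7 normalized reads in the Tg197 libraries, against 69.4, 46.5 and 55.5 in the WT libraries. The log2 fold change of Trim25 was -0.99 (SE 0.28). Only promoters whose region passed and whose groups did not overlap were eligible to be shown. Separation and passing at these 6 were therefore set by the choice. Aox4, an aldehyde oxidase gene, and Hoxd12, a homeobox gene of limb patterning, hold 13 CG each, and fell by 0.68 (SE 0.21) and 0.56 (SE 0.21) on the log2 scale. Hoxd12 had 73.4, 92.8 and 75.0 normalized reads in Tg197 cells, against 116, 110 and 130 in WT cells. The 3 gained promoters shown hold fewer CG, a contrast of these chosen examples only. Taar5, a trace amine receptor gene, holds 4 CG and had 12.8, 22.9 and 21.6 normalized reads in Tg197 cells, against 5.44, 5.58 and 6.82 in WT cells, a log2 fold change of 1.50 (SE 0.40). Slc23a3, a solute carrier gene, holds 6 CG and gained 1.48 (SE 0.55), and Igsf6, an immunoglobulin superfamily gene, holds 5 CG and gained 0.92 (SE 0.27). Adjusted p was 0.0219 for Trim25, Aox4, Taar5 and Igsf6, 0.0360 for Hoxd12 and 0.0345 for Slc23a3 (limma, Benjamini-Hochberg). After scaling the libraries to equal sums, Aox4 and Hoxd12 did not pass (adjusted p = 0.101 and 0.209 in limma), and the other 4 did. Over the 28 listed regions that cover at least 150 of the 300 bases of a gene's single RefSeq promoter, 25 of them across the start itself, the median was 8 CG per promoter, 7.5 in the 12 gained and 9.5 in the 16 lost, against 7 over all promoters. Counts ran from 4 to 39 CG in the gained and from 0 to 31 CG in the lost promoters. At least 1 CG is present in 94.6% of all promoters, and CG reads the same on both strands.

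Of the 7106 autosomal regions, 3904 were gained and 3202 lost in Tg197 cells. On a retest with limma, 5599 passed an adjusted p of 0.05 (78.8%), of which 3586 were gained (50.5% of regions) and 2013 lost (28.3%). The authors listed these regions because they differed, so the test checks selected regions again and these shares do not describe the genome. The 6 values of a region separated the groups with no overlap at 6003 regions (84.5%), 50.1% of regions gained and 34.3% lost. The smallest adjusted p was 0.0219 and 3439 regions shared it, so it does not rank regions and is not repeated for each one. Fold changes at other ages are given below without an adjusted p and are not reported as calls. Single regions given below with a log2 fold change from these 6 libraries had an adjusted p of 0.0219 unless another is given. For Ugt2a1, Speer4d, Tmem218 and Mcph1 it was 0.0222, 0.0221, 0.0231 and 0.0303, and regions described only within the count or range of a gene had other values. The calls rest on single libraries. Without Tg197 library 1 only 10 regions passed, and without Tg197 library 3 or without WT library 2 none did in limma, with smallest adjusted p of 0.0531 and 0.0539. At an unadjusted p under 0.05 there were 5042, 4568 and 5051 regions in these 3 fits. Fold changes kept their sign at 7103, 7093 and 7103 regions, with medians of 0.77, 0.60 and 0.73 on the log2 scale against 0.78 with all libraries. No region named below keeps its call in all of them.

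The median log2 fold change was 1.22 in gained and -0.75 in lost regions, and the medians of the authors' deposited table were 1.33 and -0.80. Gains lay at thinly captured and losses at heavily captured regions. Of the 1954 regions with a mean of up to 20 normalized reads over the 6 libraries, 82.5% were gained, with 1557 gained and 339 lost that passed. Of the 968 regions above 100 and up to 200 normalized reads 6.61% were gained, and of the 437 above 200 it was 5.03%, with 2 gained and 66 lost that passed and 369 that did not pass. Without WT library 1 the regions above 200 held 3 gained and 102 lost that passed.

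**Figure D1:**
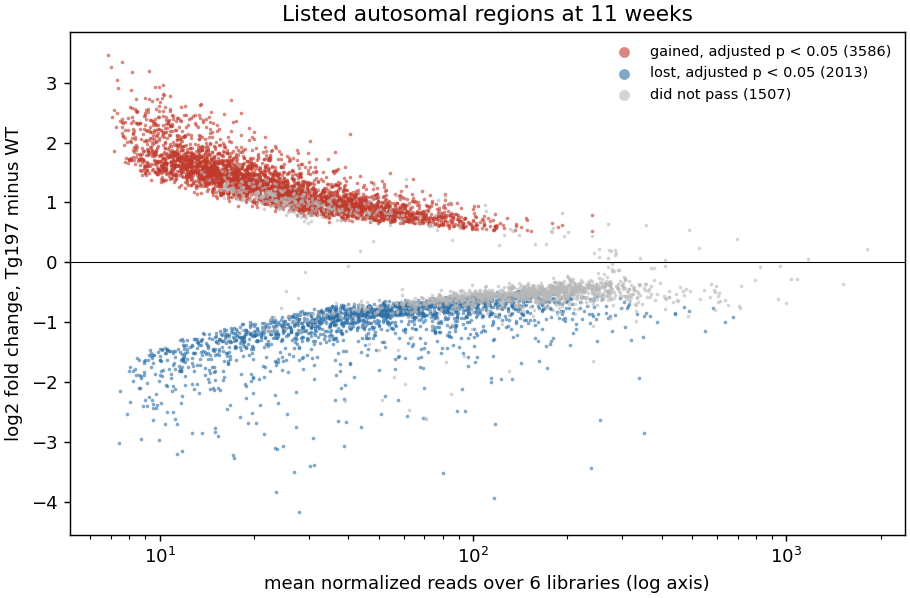
Each point is 1 of the 7106 autosomal regions, with the mean normalized reads of the 6 libraries on a log axis and the log2 fold change of Tg197 minus WT. The 3586 gained regions that passed (red) lie mostly at low means, the 2013 lost regions that passed (blue) extend to higher means, and most of the 1507 that did not pass (grey) are lost regions of high mean.

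The libraries of a group were not alike. Reads recovered in the autosomal regions ranged from 371066 to 523666 per library, and total depth outside the listed regions is unknown. Summed autosomal values were 417791, 425001 and 444145 in the Tg197 libraries, against 638390, 458288 and 430491 in the WT libraries. WT library 1 was the highest of the 6 at 2263 of the 3202 lost regions, and Tg197 library 3 was the highest at 2788 of the 3904 gained regions. Across regions, Tg197 libraries 1 and 2 correlated at r = 0.91, WT libraries at 0.92 to 0.94, and Tg197 library 3 with WT libraries at 0.54 to 0.60; these are descriptions over regions chosen for a group difference. With the 6 libraries scaled to equal sums, the median of all regions moved by 0.22 on the log2 scale, and 3782 gained and 921 lost regions passed, so that 80.4% of passing regions were gained in place of 64.0%. Scaling to equal sums moved the folds toward gain, so it could not test the larger number of gains than losses. The number of losses depended on the scaling.

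Most regions lay outside promoters. The classes of the files put 3444 regions between genes, 3258 in gene bodies and 404 within 3 kb of a transcription start. Gene bodies held 1749 gained and 812 lost regions that passed, with a median log2 fold change of 0.84 (1850 and 343 after scaling to equal sums). Intergenic regions held 1641 gained and 1071 lost, with a median of 0.65 (1728 and 523 scaled), against a median of 0.78 over all autosomal regions. The 404 promoter regions held 196 gained and 130 lost that passed, with a median of 0.71 (204 and 55 scaled). Within them, the 41 regions whose centre lay within 250 bases of a start held 18 gained and 17 lost (19 and 5 scaled); 20 were higher and 21 lower in Tg197 cells, so 1 region sets the sign of their median of -0.48. The 103 regions from there to 1 kb had 48 gained and 35 lost (50 and 18 scaled), and the 260 regions from 1 to 3 kb had 130 and 78 (135 and 32 scaled). No test of the difference between classes was made. Summed over promoter regions, the Tg197 libraries held 24661, 24641 and 25558 normalized reads, against 36394, 27337 and 24730 in WT. The groups overlapped (exact permutation test, two-sided p = 0.2, smallest possible 0.1). Sums over gene bodies were 193170 ± 10404 in Tg197 and 216440 ± 44724 in WT (SD, n = 3 each; exact permutation test, two-sided p = 0.7), and over intergenic regions 210850 ± 4504 and 263130 ± 62049 (exact permutation test, two-sided p = 0.1).

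**Figure D2:**
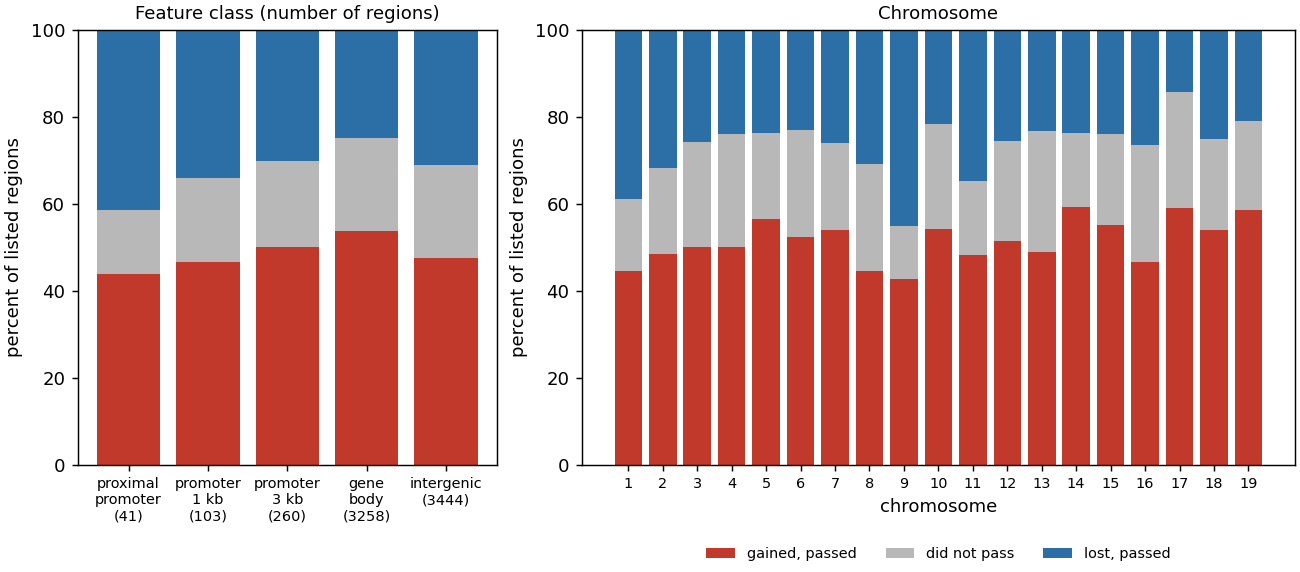
Bars show the percent of listed autosomal regions that were gained in Tg197 and passed (red), did not pass (grey) or were lost and passed (blue), by feature class on the left and by chromosome on the right. The lost share of bars is largest at proximal promoters on the left and on chromosome 9 on the right, where 243 gained and 256 lost regions passed.

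At promoters, the largest gain was centred at -415.5 bases from the start of Esrrb, an orphan nuclear receptor gene (chr12:87701301-87702000). It had 20.7, 16.03 and 15.5 normalized reads in Tg197 cells, against 0, 3.72 and 1.95 in WT cells. All Tg197 libraries stood well above the WT libraries, with a log2 fold change of 2.93 (SE 0.67). Pik3c2b, a class II phosphoinositide 3-kinase gene (chr1:134943851-134944650), had 17.6, 14.9 and 18.97 normalized reads in Tg197 cells, against 6.80, 1.86 and 0 in WT cells, a gain of 2.68 (SE 0.74). Mtrr, methionine synthase reductase of the folate and methionine cycle, had 14.4, 12.6 and 18.1 in Tg197 cells, against 5.44, 2.79 and 0 in WT cells. The next gains were at Slc28a1, a nucleoside transporter gene, Shc3, a signalling adaptor gene, and Ugt2a1, a glucuronosyltransferase gene, with log2 fold changes of 2.43, 2.41 and 2.33. Myl10, a myosin light chain gene, gained 2.09, but Tg197 library 3 with 39.7 normalized reads stood apart from 11.2 and 10.3 in the other Tg197 libraries. Ckb, brain creatine kinase, gained 2.03. WT values of these 8 regions did not exceed 6.80 normalized reads, so the folds rest on few WT reads.

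The largest promoter loss was centred at -2160.5 bases from the start of Afg3l1 (chr8:125999101-126000100), a gene related to mitochondrial AAA proteases. It had 0, 14.9 and 7.76 normalized reads in Tg197 cells, against 66.6, 40.02 and 56.5 in WT cells, a log2 fold change of -3.39 (SE 0.86). Arl8a, a small GTPase gene of lysosome transport (chr1:137045701-137046700), had 17.6, 0 and 6.03 in Tg197 cells, against 40.8, 45.6 and 39.0 in WT cells, a change of -3.07 (SE 0.87). The libraries of Arl8a varied more in Tg197 (SD 8.92) than in WT (SD 3.43), while those of Afg3l1 did not (SD 7.45 in Tg197 and 13.4 in WT). At the start of Mtch2, a protein gene of the outer mitochondrial membrane (chr2:90686951-90687950), Tg197 cells had 20.7, 4.58 and 15.5 normalized reads, against 61.2, 40.02 and 90.6 in WT cells, a change of -2.29 (SE 0.51). Dio2, the deiodinase that makes active thyroid hormone (chr12:91976601-91977100), had 9.57, 1.15 and 2.59 normalized reads at its start in Tg197 cells, against 17.7, 20.5 and 15.6 in WT cells, a change of -2.12 (SE 0.61). Ppp1r12b, a myosin phosphatase subunit gene, Slc25a1, the mitochondrial citrate carrier, and Cd3e, a T cell receptor subunit gene, fell by 1.82, 1.82 and 1.79 on the log2 scale. Slc25a1 was even in WT cells, at 24.5, 25.1 and 23.4, and spread over 2.39, 6.87 and 12.9 in Tg197 cells. The Speer4d promoter fell by 2.37, but this gene belongs to a family of near-identical copies, so its reads are uncertain.

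**Figure D3:**
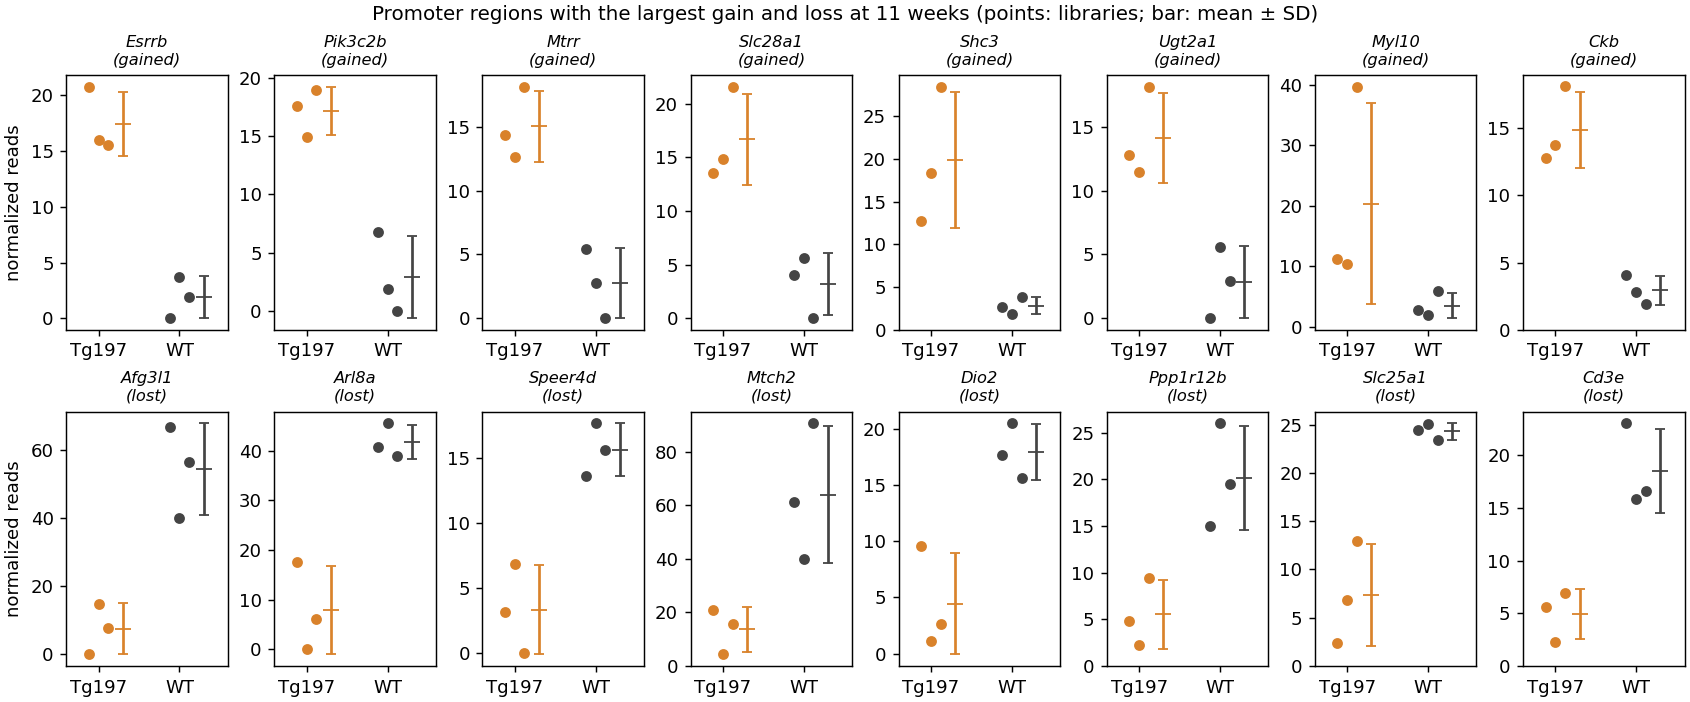
Points are the normalized reads of the 3 Tg197 (orange) and 3 WT (dark) libraries at the 8 promoter regions with the largest gain (top) and loss (bottom), and bars are mean ± SD. Only regions whose groups do not overlap were eligible for the 16 panels, and Myl10 shows 1 Tg197 library far above the others.

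In gene bodies, 3 of the 6 largest gains had almost no WT reads. The region in Odz2, a teneurin gene of cell adhesion (chr11:36484551-36485050), had 9.57, 11.5 and 18.97 normalized reads in Tg197 cells, against 0, 0 and 0.97 in WT cells. In reads this was 44 against 1, a ratio of 38.0 (95% interval 6.47 to 1533, exact binomial, counting error only). Lgr4, the R-spondin receptor gene that amplifies Wnt signals (chr2:109806101-109806750), had 48 reads in Tg197 cells and 2 in WT cells, a ratio of 20.7 (5.43 to 176), and Sfrs2ip, a splicing factor partner gene, had 51 and 3, a ratio of 14.7 (4.74 to 73.5). Arhgef18, a guanine nucleotide exchange factor gene, Clmn, the calmin gene, and Wasf2, an actin nucleation regulator gene, gained 2.91, 2.87 and 2.78 on the log2 scale. The largest loss was at Ninj2, an adhesion molecule gene, with 0, 0 and 4.31 normalized reads in Tg197 cells, against 16.3, 12.1 and 11.7 in WT cells, a change of -3.03 (SE 0.80). Pign, a gene of glycosylphosphatidylinositol anchor synthesis, fell by 2.86. Sorl1, a sorting receptor gene, fell by 2.77. Tex2, Tmem218 and Sdccag8, a centrosomal protein gene, had log2 fold changes of -2.63, -2.58 and -2.53.

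Listed regions were near or in 2609 genes, of which 627 had several; all regions of the gene moved the same way in 314 and directions were mixed in 313. In the 63 genes with both a promoter and a gene-body region, the medians were both higher in 20, both lower in 13, higher at the promoter alone in 16 and higher in the body alone in 14. Odz2 had 17 regions, with 11 gained and 6 lost that passed. Prkca, protein kinase C alpha, had 11 regions, with 8 gained and 2 lost that passed (8 and 1 without WT library 1, 7 and 1 without Tg197 library 2). Smyd3, a lysine methyltransferase gene, had 11, with 4 gained and 6 lost (4 and 1 scaled). Sorl1 had 10, with 4 gained and 6 lost, and its last 3 regions in mm9 order had log2 fold changes of -1.95, -2.77 and -1.31. Wwox, a tumour suppressor gene at a fragile site, had 9 regions, all higher in Tg197 cells; 8 passed, with log2 fold changes of 0.87 to 1.72. Sfi1, a centriole protein gene, had the most regions, 19, of which 12 were lost and passed and none was gained and passed. Without WT library 1, 2 passed. The Sfi1 region with the highest values had 1916, 1952 and 1902 normalized reads in Tg197 cells, against 1172, 1881 and 2013 in WT cells, and did not pass.

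Counts at lists of genes stand beside 50.5% gained and 28.3% lost with passing tests over all autosomal regions. Among genes of the IL-6 family, Jak-Stat and IL-1 signalling, which carry inflammatory cytokine signals, 13 of 80 genes had 16 regions. Of these 10 were gained and 5 lost with passing tests (10 and 3 scaled), with a median log2 fold change of 1.12 against 0.78 over all regions. Lif, a cytokine of the IL-6 family, lost capture 353.5 bases past its start (chr11:4167001-4167900), with 23.1, 24.1 and 18.1 normalized reads in Tg197 cells, against 53.0, 42.8 and 49.7 in WT cells. This was a change of -1.13 (SE 0.25), and the region was named for its small p. Cntfr, receptor of ciliary neurotrophic factor, had 54.3, 40.1 and 45.7 in Tg197 cells, against 25.8, 17.7 and 16.6 in WT cells, a gain of 1.20 (SE 0.28). Tyk2, a Janus kinase gene and a susceptibility gene of rheumatoid arthritis (chr9:20923351-20924350), had 31.1, 65.3 and 69.8 in Tg197 cells, against 133, 121 and 128 in WT cells, a change of -1.27 (SE 0.31).

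Of the TNF and NF-kB genes, 8 of 76 had 11 regions, with 5 gained and 5 lost that passed (6 and 2 scaled, 6 and 3 without Tg197 library 2) and a median of 0.64. Tnfsf11, the gene of RANKL, the cytokine that drives osteoclast formation, had 3.99, 4.58 and 7.76 normalized reads in Tg197 cells at a gene-body region (chr14:78682001-78682500), against 13.6, 17.7 and 18.5 in WT cells, a change of -1.48 (SE 0.43). Map3k14, the kinase of the non-canonical NF-kB pathway, fell by 1.14 (SE 0.29), and Map3k5, a stress kinase gene, gained 0.83 (SE 0.23). Of 41 chemokine genes only Ccl19, a ligand of CCR7, had a region. It was centred at -1752.5 bases from the start, with 32.7, 58.4 and 49.1 in Tg197 cells, against 13.6, 19.6 and 26.3 in WT cells, a gain of 1.21 (SE 0.33). Interferon response genes had 5 regions, with 3 gained and 1 lost that passed (3 and 2 without WT library 3), and besides Trim25 they included Tap2, the peptide transporter gene of antigen presentation, and Adar, an RNA editing enzyme gene, with gains of 0.99 and 0.85. Rheumatoid arthritis susceptibility genes had 31 regions in 19 of 97 genes, with 17 gained and 9 lost that passed (18 and 2 scaled) and a median of 0.74. Tec, a kinase gene of immune receptors, had 54.3, 56.1 and 45.7 normalized reads in Tg197 cells, against 17.7, 19.6 and 24.4 in WT cells, a gain of 1.31 (SE 0.25), and Wdfy4 gained 1.04 (SE 0.26). Genes reported for altered methylation in human rheumatoid fibroblasts had 9 regions, with 5 gained and 3 lost (5 and 1 scaled, and 5 and 1 without Tg197 library 2), among them gains at Capn8, a calpain gene, of 1.20 and at Bcl6, a transcriptional repressor gene, of 1.57.

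Focal adhesion and cytoskeleton genes, which anchor and move the cell, held 67 regions in 42 of 115 genes. Of these 48 were gained and 13 lost with passing tests (49 and 4 scaled), which is 71.6% and 19.4%, and the median was 1.15 against 0.78 over all regions. The list lay at lower capture, with a median region mean of 30.35 normalized reads in Tg197 cells and 15.56 in WT cells. Over all regions these were 38.7 and 29.38. Of the 1204 listed regions averaging above 20 and up to 30 normalized reads, 841 were gained and 217 lost with passing tests. Their median was 1.11 and the gained share 69.85%, close to those of the list, and a difference at equal level was not tested. Limk1, a kinase that stabilises actin, had 79.8, 77.9 and 70.7 normalized reads in Tg197 cells, against 32.6, 39.1 and 42.9 in WT cells, a gain of 0.98 (SE 0.22). Myh9, nonmuscle myosin heavy chain, had 15.2, 12.6 and 15.5 in Tg197 cells, against 2.72, 2.79 and 3.90 in WT cells, a gain of 1.91 (SE 0.46). The neuronal adhesion list, whose long genes include Odz2, Ctnna2 and Unc5d, had 103 regions in 45 of 128 genes, with 57 gained and 32 lost that passed (58 and 19 scaled) and a median of 0.97. Ctnna2, an alpha catenin gene, gained 1.60 (SE 0.38), and Unc5d, a netrin receptor gene, gained 1.46 (SE 0.35).

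Collagen and matrix genes had 43 regions in 34 of 101 genes, with 24 gained and 10 lost that passed (26 and 4 scaled) and a median of 0.82. These are 55.8% and 23.3%, near the 50.5% and 28.3% over all regions. Col14a1, a fibril-associated collagen gene (chr15:55227151-55227650), had 5.58, 5.73 and 4.31 normalized reads in Tg197 cells, against 17.7, 19.6 and 17.5 in WT cells. The libraries of each group lay close together, with a change of -1.64 (SE 0.38). Col8a2, a short-chain collagen gene, fell by 1.15 and Emilin2, an elastic fibre glycoprotein gene, gained 1.49. Matrix proteases and their inhibitors had 28 regions, with 15 gained and 7 lost that passed (15 and 2 scaled). Ctsk, cathepsin K, a collagen-degrading protease of osteoclasts and synovial fibroblasts, had 34.3, 35.5 and 56.0 in Tg197 cells, against 12.2, 20.5 and 18.5 in WT cells, a gain of 1.24 (SE 0.32). The procollagen proteinase genes Adamts14 and Adamts2 fell by 0.91 and 1.04, and Adamts14 did not pass after scaling.

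Wnt genes had 39 regions, with 19 gained and 10 lost that passed (21 and 4 scaled) and a median of 0.94; the shares of 48.7% and 25.6% lay near those over all regions. Besides Lgr4, Tcf7l2, a transcription factor that pairs with beta-catenin, had 49.5, 32.1 and 81.0 normalized reads in Tg197 cells, against 21.8, 18.6 and 11.7 in WT cells, a gain of 1.53 (SE 0.38). Wnt1, a ligand gene, had 55.9, 51.5 and 35.4 in Tg197 cells within 3 kb of its start (chr15:98621751-98623750), against 113, 190 and 94.5 in WT cells, a change of -1.42 (SE 0.31). TGF-beta and BMP genes had 33 regions, with 17 gained and 6 lost that passed (20 and 3 scaled) and a median of 1.02. Ltbp1, which stores latent TGF-beta in the matrix (chr17:75455201-75456300), had 64.6, 51.5 and 74.1 in Tg197 cells, against 4.08, 18.6 and 29.2 in WT cells, a gain of 2.14 (SE 0.57). Acvr1, a BMP receptor gene, gained 1.02, and Gdf6, a ligand gene of joint formation, fell by 1.10.

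Of the 23 regions at limb patterning genes, 6 were gained and 13 lost with passing tests (6 and 8 scaled), which is 26.1% and 56.5%. Their median was -0.79, or -0.57 after scaling, while over all regions it was 0.78, or 1.00 after scaling. Median region means of the list were 34.9 normalized reads in Tg197 cells and 51.2 in WT cells, against 38.7 and 29.4 over all regions. Of listed regions averaging above 30 and up to 50 normalized reads, 57.4% were gained and 33.4% lost with passing tests. Above 50 and up to 100 these were 32.2% and 47.3%, with a median of -0.66. A difference at equal level was not tested. Evx2, a homeobox gene beside the Hoxd cluster, had 14.4, 13.7 and 11.2 normalized reads 549.5 bases past its start in Tg197 cells, against 40.8, 46.5 and 39.95 in WT cells. This was a change of -1.63 (SE 0.27) with small spread in both groups. Shox2, a homeobox gene of the proximal limb, had 34.3, 32.1 and 26.7 in Tg197 cells, against 10.9, 10.2 and 3.90 in WT cells, a gain of 1.88 (SE 0.41), and Gli2, a Hedgehog effector gene, gained 1.09. Cartilage, bone and fat genes had 23 regions, with 11 gained and 10 lost that passed (12 and 3 scaled, 11 and 5 without Tg197 library 2). Ebf2, a regulator of adipocytes, and Pparg, the fat cell receptor, gained 2.69 and 1.51. Both were named for their small p, and they do not stand for the direction of the list. Its 10 lost regions had a median log2 fold change of -0.91. The lost calls were 43.5% of the list, against 28.3% over all regions. After scaling they were 3 of 23 regions, against 921 of 7106 over all. Without Tg197 library 2 they were 5 of 23, against 1522 of 7106. In both of these fits the share lay near that over all regions.

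Chromatin regulator genes had 45 regions in 27 of 165 genes, with 20 gained and 16 lost that passed and a median of -0.47; lost calls fell to 3 after scaling and to 8 without Tg197 library 2. Dnmt1, the maintenance methyltransferase, had 112, 80.2 and 138 normalized reads in Tg197 cells at a gene-body region (chr9:20728001-20728650), against 42.2, 57.7 and 57.5 in WT cells, a gain of 1.03 (SE 0.26). Cbx8, a Polycomb protein gene, fell by 1.05 (SE 0.27). Imprinted genes had 23 regions, with 9 gained and 7 lost (9 and 2 scaled, 7 and 4 without Tg197 library 2) and a median of -0.50; Pon3 gained 1.61, while Trappc9 and Eif2c2, neighbours on chromosome 15, fell by 0.86 and 1.06, and Trappc9 did not pass after scaling. Cell cycle and apoptosis genes had 16 regions, with 6 gained and 8 lost (6 and 4 scaled); Tsc2, a growth inhibitor gene, and E2f3, a cell cycle factor gene, gained 1.71 and 1.36, and Casp12, an inflammatory caspase gene, fell by 1.58.

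Genes that mark the synovial fibroblast had 4 regions of 38 genes, with 3 gained that passed (1 without Tg197 library 2): Dpp4, a surface peptidase of fibroblasts, gained 0.68 (SE 0.21), Sfrp1, a Wnt antagonist gene, 1.13 (SE 0.35), and Clic5 0.80 (SE 0.33, adjusted p = 0.0498 in limma), which did not pass without WT library 1. The remaining 1 region of this list was lower in Tg197 cells, with a log2 fold change of -0.70, and did not pass. Markers of other cells were also listed. Endothelial and mural genes had 14 regions, with 9 gained and 1 lost that passed (64.3% and 7.14%, against 50.5% and 28.3% over all regions), led by Vwf, von Willebrand factor, and Dll4, a Notch ligand gene, which gained 1.75 and 1.27. Nrp2 fell by 1.11. Skeletal muscle genes had 12 regions, with 6 gained and 4 lost (7 and 3 scaled); Ttn, titin, gained 1.04, while Dysf fell by 1.52. Macrophage and osteoclast genes had 8, with 5 gained and 3 lost (5 and 0 scaled, 4 and 0 without Tg197 library 2), and besides Ctsk these were led by Nfatc1 and Mitf with gains of 1.06 and 1.02. Lymphocyte genes had 10, with 3 gained and 4 lost (4 and 3 scaled), among them a second Cd3e region that fell by 1.32 and Ebf1, a B cell factor, which gained 0.88. Summed over each list, values lay between 815 and 1011 in Tg197 libraries and between 795 and 858 in WT libraries for endothelial genes, 636 to 710 and 613 to 906 for muscle genes, 482 to 497 and 475 to 651 for macrophage genes, and 416 to 538 and 478 to 635 for lymphocyte genes. The sums of the groups overlapped in all 4 lists. Their part in the results was not tested, and in bulk capture the share of a cell type and the methylation per cell cannot be told apart.

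**Figure D4:**
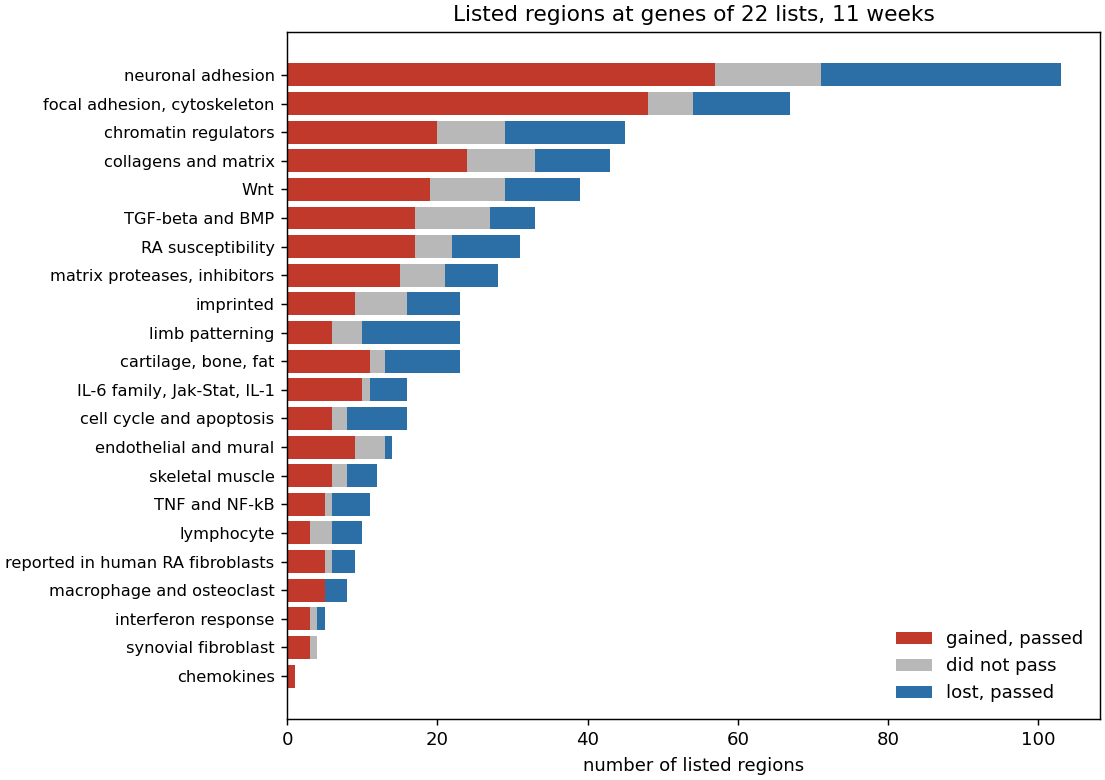
Bars count the listed autosomal regions at the genes of 22 lists that were gained in Tg197 and passed (red), did not pass (grey) or were lost and passed (blue). Focal adhesion genes show 48 gained and 13 lost, and limb patterning genes show more lost (13) than gained (6) regions.

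Neighbouring regions often had the same direction. Of 143 neighbouring pairs within 1 kb, 120 moved the same way (83.9%), of 638 within 10 kb 470 (73.7%), and of 6555 within 1 Mb 57.1%. The 1133 stretches of 2 Mb with a region held a median of 5. The fullest, on chromosome 9 from 40 to 42 Mb, held 63. Over all autosomal regions 50.5% were gained and 28.3% lost with passing tests. In this stretch 19 (30.2%) were gained and 41 (65.1%) lost. Gramd1b, a lipid transfer protein gene, had 8.78, 11.5 and 7.76 normalized reads there in Tg197 cells, against 40.8, 41.9 and 52.6 in WT cells, a change of -2.16 (SE 0.30). Ubash3b, a phosphatase gene of immune receptor signalling, had 22.3, 16.03 and 18.1 in Tg197 cells, against 68.0, 61.4 and 56.5 in WT cells, a change of -1.68 (SE 0.25). These 2 regions and the Sorl1 region of the same stretch were named for their small p. A difference large for its spread is part of that choice. Also on chromosome 9, the stretch from 4 to 6 Mb held 29 regions. It had 8 gained (27.6%) and 20 lost (69.0%) that passed (5 and 19 without WT library 1, 5 and 13 without WT library 3). It includes Casp12 and Casp4, inflammatory caspase genes, which fell by 1.58 and 1.38, and Gria4, a glutamate receptor gene, which fell by 0.78 (adjusted p = 0.0236 in limma) and did not pass after scaling.

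On chromosome 5, the stretch from 72 to 74 Mb held 16 gained and 7 lost regions that passed of 28 (18 and 1 scaled). These are 57.1% and 25%, near the 50.5% and 28.3% over all regions. Gabrb1, a GABA receptor gene, had 22.3, 26.3 and 22.4 normalized reads in Tg197 cells, against 2.72, 1.86 and 8.77 in WT cells, a gain of 2.39 (SE 0.52), and Ociad2 and Tec also gained. The stretch of chromosome 4 from 118 to 120 Mb held 15 gained (46.9%) and 11 lost (34.4%) of 32 (9 and 4 without Tg197 library 2). Hivep3, a zinc finger gene, gained 0.99 there and Ppih, a cyclophilin gene, gained 1.84. Among the fullest stretches, 2 were lost almost throughout, and the number of their calls depended on WT library 1. On chromosome 8 from 18 to 20 Mb, 30 of 47 regions (63.8%) were lost with passing tests. WT library 1 was the highest of the 6 at 44 of the 47. Without it 11 lost regions passed, and 40 did without WT library 3. The median log2 fold change was -0.79 without WT library 1, against -1.23. On chromosome 5 from 14 to 16 Mb, 25 of 27 (92.6%) were lost and passed, and WT library 1 was the highest at 21. Without it 12 lost regions passed, with a median of -1.18, against -1.44. Both lie in families of similar copies, 2610005L07Rik with 6820431F20Rik and Speer7-ps1 with Speer4e, where the counting of reads is uncertain; the remaining leaders, Mcph1 and Pclo, gained 1.37 and 1.58. Stretches of 10 or more regions that were higher throughout, named after their values were seen, were chromosome 4 from 44 to 46 Mb, with 13 of 13 regions higher, and chromosome 5 from 58 to 60 Mb, with 10 of 10. Lower throughout were chromosome 11 from 26 to 28 Mb, with 16 of 16 regions, and chromosome 4 from 112 to 114 Mb, with 11 of 11. Of these, 9 and 5 passed in limma, and 5 and 0 did without Tg197 library 2; in the chromosome 4 stretch 3 passed without WT library 1 or 3 and 2 after scaling. By chromosome, the gained share of regions lay between 45.6% on chromosome 9 and 66.1% on chromosome 17. On chromosome 17, 150 gained (59.1%) and 36 lost (14.2%) regions passed.

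**Figure D5:**
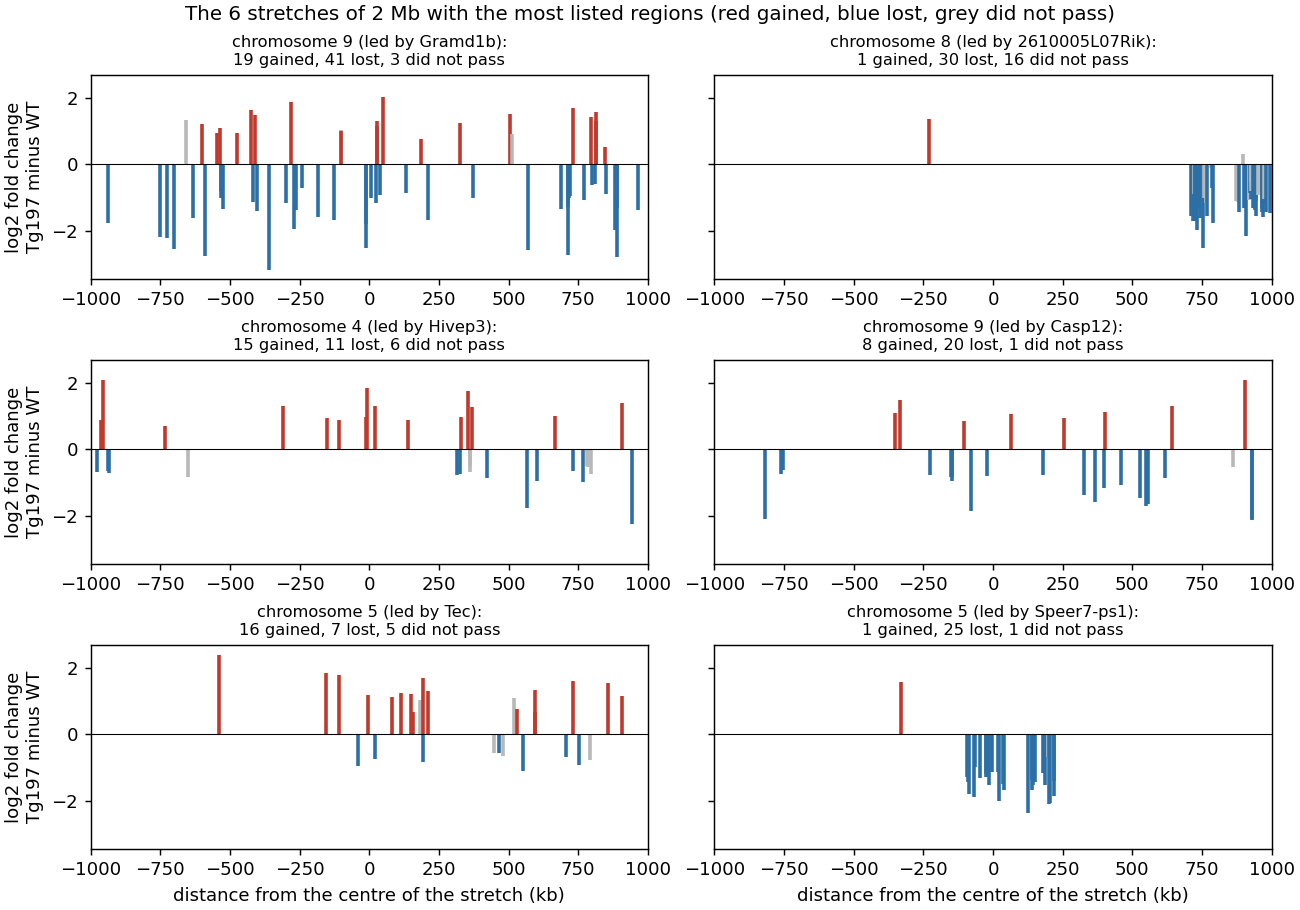
Each line is a listed region, at its distance in kb from the centre of its 2 Mb stretch, with height equal to the log2 fold change of Tg197 minus WT; red lines were gained and passed, blue were lost and passed and grey did not pass. In the stretches led by 2610005L07Rik and by Speer7-ps1 nearly all lines point down within a short distance, and in the other 4 both directions are mixed.

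Few regions were listed at another age. Of the 7106 regions, 302 (4.25%) overlapped a region listed at 3 weeks by at least 1 base, which is 2.37% of the 3-week regions, and 289 (4.07%) one at 8 weeks, 2.65% of the 8-week regions. The 3 comparisons share no libraries. Over all autosomal listed regions, 54.9% were gained at 11 weeks, 43.2% at 3 weeks and 44.4% at 8 weeks. In TNF-treated WT cells 32.0% of the listed regions were higher. Pairs can match or differ in direction from these shares alone, and the counts of pairs below were not tested against them. Of 306 overlapping pairs with 3 weeks, 64 were gained and 197 lost at both ages and 45 differed in direction; chromosome 9 gave 99 of the pairs, of which 95 had the same direction. Of 293 pairs with 8 weeks, 54 were gained and 82 lost at both and 157 differed; on chromosome 11, 30 of 39 had the same direction. Tyk2 had a log2 fold change of -1.27 at 11 weeks and -1.17 at 3 weeks, and Dnmt1 had 1.03 and 0.87. Dnmt1 had 109, 116 and 123 normalized reads in Tg197 cells at 3 weeks, against 62.0, 67.9 and 59.1 in WT cells. Casp12 had -1.58 at 11 weeks and -1.87 at 3 weeks. Tyk2, Dnmt1 and Casp12 all lie on chromosome 9, Tyk2 and Dnmt1 near each other. They belong to the 99 pairs of that chromosome and are not independent examples. At 8 weeks, Lif had -1.48, Cntfr 0.84 and Col14a1 -3.31, each in its direction of 11 weeks. The Lif promoter had 23.9, 14.5 and 8.83 normalized reads in Tg197 cells at 8 weeks, against 38.1, 36.7 and 55.3 in WT cells. Of 319 pairs with the regions listed for TNF-treated WT cells, 36 were gained and 57 lost in both and 226 differed; of the 3 treated libraries of that comparison 2 hold identical values.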

How the data were processed

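Methylated DNA of 3 Tg197 and 3 WT fibroblast samples of 11 weeks was captured after sonication and sequenced, per the labels' protocols. Salt fractions of sparse and dense methylation were combined. The submitters' processing notes name the build mm9 and the tools TopHat, Cufflinks, TopHat2, Cuffdiff and BWA, with no roles. Which program called regions is not given in the sources used here. Per region, the authors deposited the normalized signal as group mean, with the single libraries packed in a cell in an order that carries no replicate number, a log2 fold change, and a p-value and adjusted p-value. Columns headed treatment were read as Tg197, and 0 columns were left out. Only selected regions are listed.

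Library values were split and compared with limma 3.58.1 (R 4.3.3, mean trend) on log2(value + 1) over the whole table, with Benjamini-Hochberg adjustment and calls under 0.05. The scale of fold changes is the same, which understates those of low regions. The test was checked on simulated counts that were not selected for a difference, so that check does not give the error rate of these calls. All values were whole multiples of 1 step per library within 0.1, which gave back reads for intervals and limma voom. Intervals cover counting error only. Of the values of up to 20 reads, 59.8% to 63.2% were even in the 11-week libraries. Reads may therefore not be independent counts, and the intervals may be too narrow. The design had assumed counts for edgeR and DESeq2, which were not run. Overlap of groups, exact permutation of sums and promoter matches used Python 3.11.15.

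Named regions were the 8 largest promoter and 6 largest gene-body changes each way that passed, did not overlap and averaged 10 or more in their higher group, as many as 3 genes per list of the 22 lists by p, the 6 genes with most regions, and 3 genes in each of the 6 fullest stretches. A list gene may have several regions and the one of smallest p is named. Members and lists were chosen with earlier results of these data known. Lists have no test. Some genes that the rule gives are not reported here. Alternatives were other pseudocounts, scalings, filters and left-out libraries.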

Additional observations from a re-analysis of the deposited data

Results flagged for a closer look

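Regions at 2 named genes differed in direction between ages, with groups that did not overlap at either age; the difference itself was not tested. At Bcl11b, a T cell transcription factor gene (chr12:109215901-109216850), the log2 fold change was 0.90 at 11 weeks and -1.78 at 8 weeks. Tg197 cells of 11 weeks had 64.6, 63.0 and 75.0 normalized reads, against 32.6, 34.4 and 39.95 in WT cells, while Tg197 cells of 8 weeks had 3.98, 7.61 and 4.41, against 24.5, 24.7 and 13.3 in WT cells. At 2610005L07Rik, in the stretch of similar copies on chromosome 8, it was -1.43 at 11 weeks and 1.13 at 8 weeks, where Tg197 cells had 55.7, 15.2 and 20.6, against 10.2, 11.99 and 12.2 in WT cells.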

How the results depend on the processing

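Passing regions numbered 5599 (3586 gained, 2013 lost) and stayed within 1.5 times of this with a pseudocount of 0.1 or 5, a filter on means under 10, autosomal rows only, limma voom, no mean trend and regions of extreme deposited p left out. Scaling to equal sums left 921 lost. With a log2 fold of at least 1 in size, 3466 regions passed and 838 of these were lost. Adjustment over the 813000 windows implied by the deposited p-values left 0 passing, 0 gained and 0 lost in limma, with 5852 at an unadjusted p under 0.05. Leaving out 1 library gave 0 to 5418 passing, 0 to 3232 gained and 0 to 2238 lost, and 10 to 160 of the 175 regions chosen by the naming rule kept direction and side of the threshold, against 156 to 175 under the other settings fitted to each region. Leaving out WT library 1 and Tg197 library 3 together, chosen after seeing the data, gave 2836 (1704 gained, 1132 lost) and 129 of the 175 regions. At Sfi1, the regions at 3035351, 3053601 and 3064051 turned sign, with ranges over the fits that leave out libraries of -0.017 to 0.373, -0.989 to 0.068 and -0.850 to 0.061. The cause was not tested. No paired analysis was possible because the values within a cell carry no replicate number. edgeR and DESeq2 were not run; the recovered reads were tested with limma voom. Only listed regions have values and total depth is unknown, so regions outside the list cannot be described.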
